A study of Mus musculus with 8 samples.

Results

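CpG-poor promoters are gene starts whose DNA holds few CpG dinucleotides for its base composition. Here a promoter was the window of 500 bp on each side of the 5′ end of a protein-coding gene record on chromosomes 1 to 19 of the mouse genome GRCm38 (GENCODE M21). It was called CpG-poor when its CpG observed/expected, the number of CpGs over the number that its C and G content would give by random order, was below 0.48. This held for 9157 of 20807 promoters (44.0%). The rule used the genome sequence and no peak.

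5-hydroxymethylcytosine (5-hmC) was mapped by hMeDIP-seq, in which sheared DNA is pulled down with an antibody against 5-hmC and sequenced, in pro-B cells, the progenitors that rearrange the immunoglobulin heavy chain gene. The cells were sorted as B220+CD43+IgM- from the bone marrow of C57BL/6 mice aged 4 to 6 weeks, and the DNA was sheared to 350 bp. HDAC7-deficient cells (2 libraries) carried Hdac7 fl/-, with 1 floxed and 1 null allele, and Cre from mb1-Cre, which is inserted in Cd79a and acts from the pro-B stage. The control cells (2 libraries) are labelled wild-type and described in the study as Hdac7+/- littermates, so that a null Hdac7 allele was shared by both groups, and whether these controls carried mb1-Cre was not stated. Nothing says whether the 2 libraries of a genotype came from separate animals, so the p-values below measure only the spread between these libraries. The peak lists hold neither RNA nor allele counts, so neither the deletion of Hdac7 nor the identity of the sorted cells could be checked in them. They give the positions of peaks without height or read count, and the depth behind a peak is unknown.

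In mammalian DNA most CpGs are methylated, and TET enzymes oxidise 5-methylcytosine to 5-hmC. CpG islands, the CpG-rich starts of most housekeeping genes, stay largely free of methylation, whereas CpG-poor starts are often methylated where the gene is silent and belong more often to genes of 1 tissue. HDAC7 is a class IIa histone deacetylase that partners MEF2 factors and represses genes of other lineages in B cell progenitors.

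The 200 bases upstream of 6 gene starts are printed to show what these windows look like and where peaks lay on them, read from GRCm38 in the direction of transcription, with every CpG in capitals. Fcmr and Gmfg, on the plus strand at chr1:130865469-130865668 and chr7:28437247-28437446, stand for blood cell genes with peaks in every library. Tdo2, on the minus strand at chr3:81976203-81976402, is a liver gene whose stretch holds no CpG. Prss22, on the minus strand at chr17:23998101-23998300, and Slc8a2, on the plus strand at chr7:16129626-16129825, had the largest differences between the genotypes. Jun, on the minus strand at chr4:95052223-95052422, is a CpG-rich contrast.
Fcmr: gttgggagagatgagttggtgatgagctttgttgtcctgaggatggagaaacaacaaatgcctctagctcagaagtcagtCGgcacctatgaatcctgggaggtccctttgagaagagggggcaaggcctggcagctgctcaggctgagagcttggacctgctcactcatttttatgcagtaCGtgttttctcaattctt
Gmfg: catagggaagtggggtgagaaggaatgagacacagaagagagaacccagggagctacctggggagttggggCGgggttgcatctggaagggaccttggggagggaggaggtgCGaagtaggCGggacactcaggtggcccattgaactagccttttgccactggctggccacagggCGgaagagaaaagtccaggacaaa
Tdo2: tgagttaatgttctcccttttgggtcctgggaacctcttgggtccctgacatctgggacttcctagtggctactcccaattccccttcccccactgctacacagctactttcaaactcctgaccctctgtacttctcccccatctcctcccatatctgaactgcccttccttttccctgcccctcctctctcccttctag
Prss22: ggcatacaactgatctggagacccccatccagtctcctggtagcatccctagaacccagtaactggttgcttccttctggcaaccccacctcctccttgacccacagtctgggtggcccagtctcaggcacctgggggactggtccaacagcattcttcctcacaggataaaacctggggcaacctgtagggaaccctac
Slc8a2: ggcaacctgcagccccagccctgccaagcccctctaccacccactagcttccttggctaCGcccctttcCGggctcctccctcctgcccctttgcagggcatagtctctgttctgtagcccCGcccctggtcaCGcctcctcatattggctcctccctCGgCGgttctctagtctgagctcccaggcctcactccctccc
Jun: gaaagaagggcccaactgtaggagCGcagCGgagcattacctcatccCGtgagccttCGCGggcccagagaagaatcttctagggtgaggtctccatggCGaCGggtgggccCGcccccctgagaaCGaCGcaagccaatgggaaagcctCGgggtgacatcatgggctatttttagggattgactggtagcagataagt

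The CpG-poor stretches held between 0 CpGs (Tdo2 and Prss22) and 6 CpGs (Slc8a2), and the Jun stretch held 11. Of the 200 bases of Fcmr, 150 lay under peaks in wild-type replicate 1 and all 200 in the other 3 libraries. Of those of Tdo2, 164 and 200 lay under peaks in the wild-type and 189 and 153 in the HDAC7-deficient libraries. Peaks therefore covered most of a stretch with no CpG in every library. The pulled-down fragments, of 350 bp, are longer than this stretch. No base of the Jun stretch lay under a peak in any library.

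Peaks covered CpG-poor promoters about as much as the autosomes as a whole, with a ratio of 0.954 to 1.04 over the 4 libraries (two-sided exact sign-flip permutation p = 0.625). Values for each genotype are given below for replicate 1 and then replicate 2. Of the CpG-poor windows, 47.2% and 48.7% met a peak in the wild-type pair and 48.8% and 44.9% in the HDAC7-deficient pair. Of the window bases, 9.82% and 11.0% lay under peaks in the wild-type and 9.69% and 10.1% in the HDAC7-deficient libraries. Over the autosomes these values were 9.41% and 10.8%, and 9.30% and 10.6%, in the same order. Coverage was thus lower in both first replicates than in both second replicates, over the autosomes and at the CpG-poor promoters. There were 67.1 and 71.4 peaks per 100 windows in the wild-type and 71.6 and 64.9 in the HDAC7-deficient libraries. Peaks in CpG-poor windows had a median width of 150 to 184 bp, against 147 to 171 bp elsewhere, and were the wider in each of the 4 libraries. A peak was counted in a window by 1 shared base, and a wider peak meets a window more often. The widths are therefore not read as a trait of these promoters. Peaks in CpG-poor windows made up 0.455% to 0.487% of all autosomal peaks.

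Over the class the genotypes differed by less than the spread between libraries. The share of windows with a peak was 47.9% ± 1.07 in wild-type and 46.8% ± 2.73 in HDAC7-deficient cells (SD, n = 2 each), a difference of -1.08 percentage points ± 2.93 (two-sided exact permutation test, p = 1). Bases under peaks were 10.4% ± 0.833 and 9.91% ± 0.309, a difference of -0.499 percentage points ± 0.888 (exact permutation p = 0.667). The difference in peaks per 100 windows was -1.05 ± 5.64 (exact permutation p = 1). With 2 libraries against 2, the smallest p that this test can give is 0.333. Each of these 3 differences turned positive when 1 library was left out. The share became 0.852 without HDAC7-deficient replicate 2, bases became 0.0895 without wild-type replicate 2, and peaks per 100 windows became 1.11 without wild-type replicate 2 and 2.30 without HDAC7-deficient replicate 2.

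CpG-poor promoters had more bases under peaks than CpG-rich promoters (observed/expected of 0.75 or above, 5924 windows) in each of the 4 libraries. CpG-rich windows had 8.16% and 9.53% of bases under peaks in the wild-type and 9.32% and 6.84% in the HDAC7-deficient libraries. HDAC7-deficient replicate 2 was the lowest of the 4 at CpG-rich promoters, where 35.8% of windows had a peak, against 45.5% to 52.0% in the other 3. The ratio of CpG-poor to CpG-rich was 1.20, 1.15, 1.04 and 1.48 (mean 1.22 ± 0.187 SD, n = 4 libraries, two-sided exact sign-flip permutation p = 0.125, the smallest that 4 libraries allow). For the share of windows with a peak the ratio was 1.04, 1.06, 0.937 and 1.25 (exact sign-flip permutation p = 0.5). It was thus below 1 in HDAC7-deficient replicate 1. Against the 5726 promoters in between, CpG-poor windows had the lower coverage in all 4 libraries, with ratios of 0.815 to 0.940 (exact sign-flip permutation p = 0.125). Against all 11650 other promoters the ratio lay on either side of 1, at 1.04, 0.958, 0.943 and 1.15 (exact sign-flip permutation p = 0.875).

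Counted per CpG, the contrast with other promoters was wider. The median CpG-poor window held 11 CpGs (quartiles 5 and 19) and 47.0% GC, and the median CpG-rich window 84 CpGs and 63.2% GC. Of the CpGs in CpG-poor windows, 11.4% and 13.1% lay under peaks in the wild-type and 11.5% and 11.5% in the HDAC7-deficient libraries. For the CpGs of CpG-rich windows the values were 6.69% and 7.19%, and 8.13% and 4.67%. The ratio of CpG-poor to all other promoters was between 1.29 and 1.80, above 1 in 4 of 4 libraries (exact sign-flip permutation p = 0.125). It was 1.13 to 1.23 against the CpGs of the whole autosomes.

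Coverage dipped around the start sites of CpG-rich promoters, and less so around those of CpG-poor promoters in 3 of 4 libraries. In the 500 bp upstream of the start, 9.28% and 10.3% of bases lay under peaks in the wild-type and 8.93% and 9.51% in the HDAC7-deficient libraries. In the 500 bp downstream the values were 10.4%, 11.7%, 10.4% and 10.7%, higher than upstream in each library. Between 4.5 and 5 kb upstream they were 10.3%, 11.1%, 10.2% and 11.3%. At CpG-rich promoters the first 500 bp downstream had 7.60% and 8.48% in the wild-type and 8.93% and 5.55% in the HDAC7-deficient libraries. Between 4.5 and 5 kb upstream they had 10.3%, 11.3%, 10.2% and 10.6%. The dip at CpG-rich starts was the deeper in 3 libraries, and in HDAC7-deficient replicate 1 both classes had 8.93% at their lowest step. Coverage within 500 bp of CpG-poor starts over that at 4 to 5 kb was 0.960 on average over the 4 libraries (exact sign-flip permutation p = 0.125), and it became 1.03 (exact p = 0.25) when olfactory and vomeronasal receptor genes were left out. Within 5 kb of the start, 94.8% to 95.3% of CpG-poor promoters had a peak, fewer than the 98.9% to 99.5% of CpG-rich promoters.

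**Figure D1:**
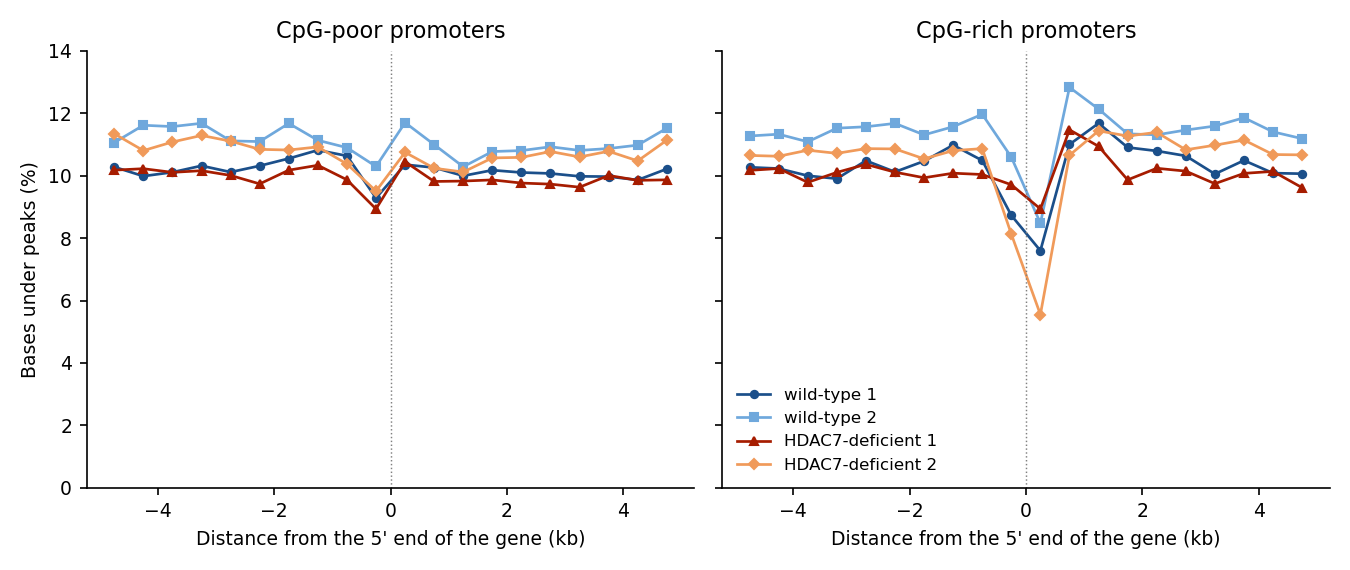
Percent of bases under peaks in steps of 500 bp from 5 kb upstream to 5 kb downstream of the 5′ end, for CpG-poor (left) and CpG-rich (right) promoters, with 1 line per library. At CpG-poor promoters every step of every library lies between 8.93% and 11.7%, and at CpG-rich promoters the first step downstream lies between 5.55% and 8.93%.

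Within the CpG-poor class, coverage was higher in windows with more GC and in windows with more CpGs, and GC content and the number of CpGs go together. When the class was cut into tertiles of GC content, the lower tertile (25.5% to 43.6% GC) had 5.59% and 7.42% of bases under peaks in the wild-type and 5.60% and 7.33% in the HDAC7-deficient libraries. In the middle tertile the values were 10.6%, 11.1%, 10.4% and 10.8%, and in the upper tertile (50.5% to 69.7% GC) 13.3%, 14.5%, 13.1% and 12.2%. The upper over the lower tertile was 2.08 on average (exact sign-flip permutation p = 0.125, above 1 in 4 of 4 libraries). Over tertiles of the number of CpGs coverage was 6.54% to 8.04%, 10.6% to 12.2% and 12.004% to 13.4%. Inside the upper GC tertile, windows with few, middling and many CpGs did not separate, at 12.8% to 14.6%, 11.7% to 14.5% and 12.4% to 14.4% over the libraries. Inside the middle GC tertile they had 9.03% to 10.04%, 10.8% to 12.1% and 10.7% to 11.5%, lowest with few CpGs in each library. Inside the lower GC tertile they had 5.05% to 6.91%, 7.10% to 9.19% and 7.01% to 10.5%, the last from 108 windows. Short-read coverage also varies with GC content, and its part in these values was not tested.

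Across all promoters, coverage was highest near the limit of the class. It was 7.01% to 8.35% where observed/expected was below 0.1, 12.9% to 14.5% just inside the limit (0.4 to 0.48, 1024 windows), 11.1% to 14.3% just outside it (0.48 to 0.6, 1831 windows), and 4.70% to 7.82% at 0.9 or above. CpG-poor windows with over 50% of bases in repeats (345 windows) had 6.57% to 7.50% of bases under peaks, those with 25% to 50% had 10.5% to 11.7%, those with under 25% had 9.62% to 11.2%, and the 188 windows with no such base had 7.61% to 10.5%. Coverage thus had no single direction with repeat content.

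**Figure D2:**
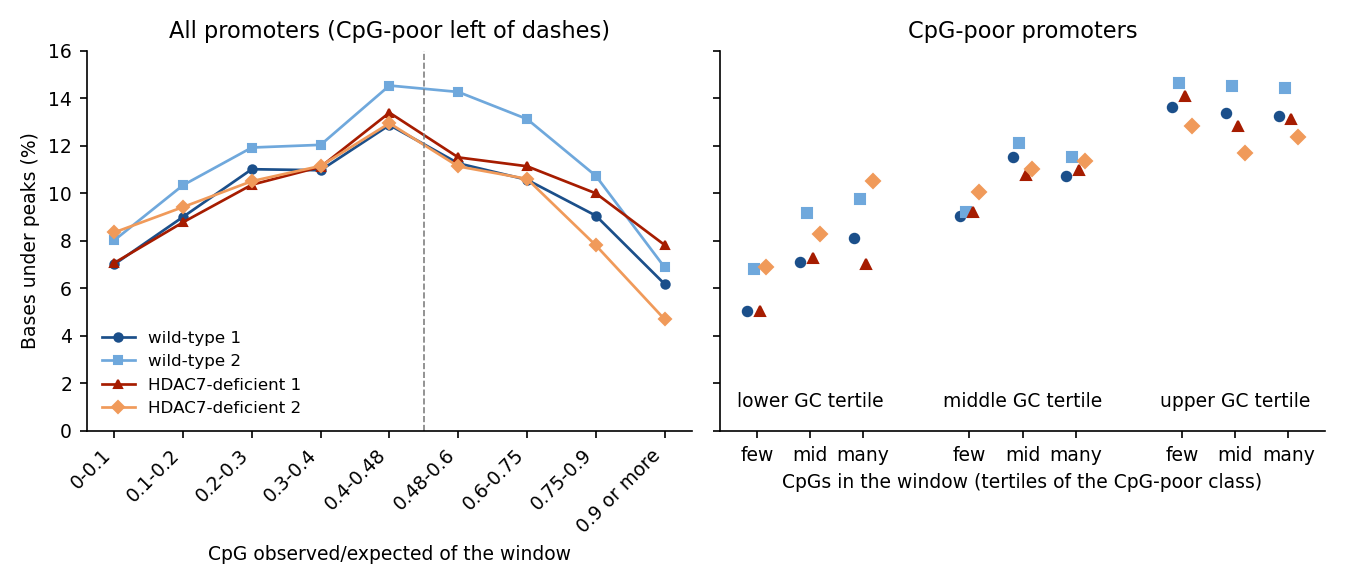
Percent of bases under peaks by CpG observed/expected of all promoters (left, lines are libraries, dashes mark the limit of 0.48) and by tertiles of GC content and of CpG number within the CpG-poor class (right, points are libraries). On the left the values are highest beside the limit. On the right the values rise from the lower to the upper GC tertile, with some overlap between neighbouring tertiles, and the CpG tertiles of the upper GC tertile overlap.

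Presence of a peak was shared unevenly. Of the CpG-poor promoters, 2402 (26.2%) had no peak in any library, 1631 (17.8%) had one in 1 library, 1501 (16.4%) in 2, 1775 (19.4%) in 3 and 1848 (20.2%) in all 4. Of the CpG-rich promoters 22.7% had none and 13.7% had a peak in all 4, and of the promoters in between 14.9% and 22.7%. Promoters with no peak had a median GC content of 43.2%, and those with a peak in all 4 libraries 49.6%. The windows that 2 libraries both marked, over those that either marked (Jaccard index), came to 0.512 for the wild-type pair and 0.526 for the HDAC7-deficient pair. Pairs of unlike genotype ran from 0.490 to 0.581, a range that holds the values of both like pairs.

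**Figure D3:**
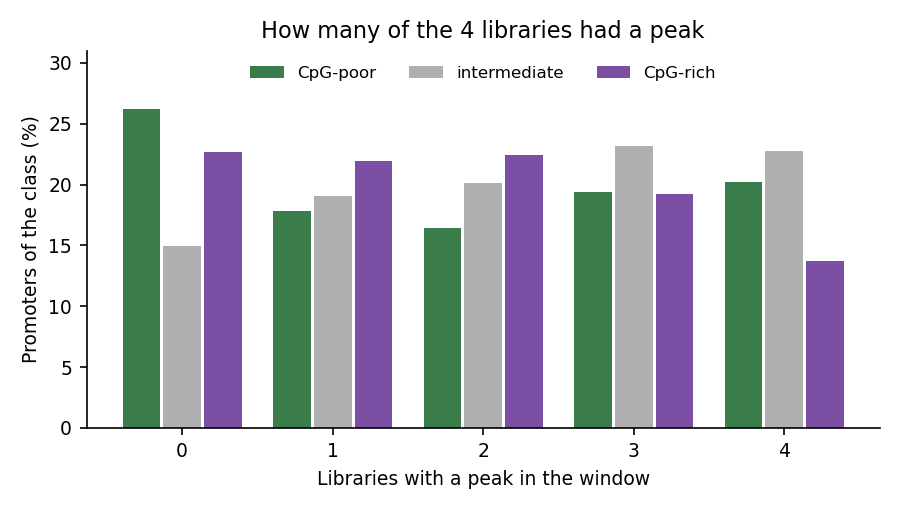
Percent of the promoters of each class with a peak in 0, 1, 2, 3 or all 4 libraries, as bars from 0. CpG-poor promoters are the most frequent class at 0 libraries (26.2%), and at 4 libraries they stand at 20.2%, between the 13.7% of CpG-rich promoters and the 22.7% of the intermediate class.

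A TATA box, the motif that places the transcription machinery at many tissue-specific genes, was searched as TATAAA on the coding strand from 45 to 16 bp upstream. It was found at 450 CpG-poor promoters (4.91%), at 0.961% of other promoters and at 2.70% of all. Windows with it had 8.01%, 8.83%, 7.63% and 8.78% of bases under peaks, and those without it 9.91%, 11.1%, 9.80% and 10.2%, higher in each library. Their median GC content was 45.1% against 47.2%. Of 3 motifs searched on both strands over the whole window, GAGGAAGT of the ETS factor PU.1 was found at 8.43% of CpG-poor and 6.88% of all promoters, CAGGTG, an E box that E2A binds, at 58.1% and 56.2%, and TGTTTAC of FOXO factors at 12.3% and 9.41%. These matches are letters in a window, not binding sites.

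The promoters of B cell surface and pre-B cell receptor genes had the highest coverage of the 6 cell type lists. Of 29 listed genes found, 25 were CpG-poor, and 25.3% and 22.5% of their bases lay under peaks in the wild-type and 25.1% and 27.1% in the HDAC7-deficient libraries. All 25 had a peak in at least 1 library and 15 had one in all 4 (60.0%, against 20.2% of the class). The median member had 240 peak bases of 1001, on average over the libraries, and the median CpG-poor window 62.25. Their median GC content was 51.8%. The 13 members in the upper GC tertile had 15.3% to 24.7% of bases under peaks, and the whole upper tertile 12.2% to 14.5%. In that tertile this range overlapped those of B cell signalling proteins and factors (5 members, 22.6% to 27.1%) and myeloid genes (15, 14.1% to 25.2%). It also overlapped those of T and NK (14, 14.8% to 20.8%) and erythroid and platelet genes (10, 11.1% to 19.8%). Liver genes (10) lay lower, at 2.05% to 6.82%. The first rank of the list thus did not hold within this tertile. The lists were drawn up with earlier results of these data known and carry no test.

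Fcmr, the Fc receptor for IgM (chr1:130865169-130866169), had 651 and 485 peak bases in the wild-type and 607 and 602 in the HDAC7-deficient libraries. Cd79a, the signalling chain of the pre-B and B cell receptors (chr7:24896881-24897881), had 268 and 546, and 460 and 549. In both genes the genotypes overlapped. Cd79a is also the locus into which mb1-Cre is inserted. Vpreb3, which binds nascent immunoglobulin chains, had 676 and 233, and 405 and 317, and Spn, which encodes the CD43 used in the sort, had 303 and 343, and 414 and 290. Bst1, an ectoenzyme of early B cells, had 443 and 550, and 305 and 281. Fcrla, an Fc receptor-like protein of B cells, had 0 and 481, and 532 and 511, and Cd37, a tetraspanin, 251 and 289, and 255 and 690. For both, 1 library of 4 stood apart from the rest. Over the 25 promoters both HDAC7-deficient libraries were above both wild-type libraries at 4 (Fcrla, Fcrl1, Cd72 and Igll1), beside 7.68% of all promoters, and below at 3 (Bst1, Ly6d and Ms4a1), beside 10.3%.

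B cell signalling proteins and transcription factors were, over all their members, nearer the class. Of 30 found, 17 were CpG-poor, with 11.5% and 14.5% of bases under peaks in the wild-type and 14.97% and 13.7% in the HDAC7-deficient libraries. Their median member had 61.25 peak bases. Peaks were present in all 4 libraries at Spib, an ETS factor (413 and 377, 437 and 440 bases), Blnk, the adaptor below the pre-B cell receptor (430 and 454, 401 and 381), Pou2af1, the coactivator OCA-B (54 and 329, 262 and 276), Spi1, which encodes PU.1 (212 and 63, 162 and 88), and Ikzf1, which encodes Ikaros (279 and 263, 496 and 304). Rag1, a subunit of the recombinase, had 0 and 496, and 604 and 504. Bank1 and Erg had no peak in any library. For Ikzf1 and Mef2c, a partner of HDAC7, another annotated start lies over 500 bp away and is not CpG-poor, as it does for 1051 CpG-poor promoters (11.5%).

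Myeloid promoters had fewer bases under peaks in both HDAC7-deficient libraries, without a test, while the share of promoters with a peak did not separate the genotypes. Of 46 genes found, 43 were CpG-poor, with 17.1% and 19.4% of bases under peaks in the wild-type and 13.1% and 13.1% in the HDAC7-deficient libraries. Their means were 18.3% ± 1.66 and 13.1% ± 0.0214 (SD, n = 2 each). The difference was between -6.33 and -3.99 percentage points with any 1 library left out, beside -0.499 over the class. The 15 members in the upper GC tertile had 16.4% and 25.2% in the wild-type and 15.5% and 14.1% in the HDAC7-deficient libraries. There wild-type replicate 1 lay close to the HDAC7-deficient values. The whole upper GC tertile had 13.3% and 14.5%, and 13.1% and 12.2%. At 9 of the 43 (20.9%) both HDAC7-deficient libraries had fewer bases than both wild-type libraries, a pattern of 10.3% of all promoters, and at 3 (6.98%) both had more, a pattern of 7.68%. A peak was present at 65.1% and 67.4% of the 43 in the wild-type and at 65.1% and 62.8% in the HDAC7-deficient libraries. Peaks in both libraries of 1 genotype and neither of the other were found at 0 of the 43 in either direction. Of all promoters, 2.44% had them in HDAC7-deficient libraries alone and 3.15% in wild-type libraries alone. Of the 43, 7 had no peak in any library, among them Tlr4, Ltf and Csf1r, the receptor of the macrophage growth factor.

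The 9 lower promoters included Itgb2 and Itgax, which encode the integrin chains CD18 and CD11c. Itgb2 (chr10:77529752-77530752) had 422 and 537 peak bases in the wild-type and 362 and 118 in the HDAC7-deficient libraries. Itgax had 419 and 439, and 329 and 256. Cd68, a macrophage scavenger receptor, had 402 and 719, and 250 and 40. Fcgr2b, the inhibitory Fc receptor that B cells also carry, had 392 and 562, and 148 and 247. In each of these 4 the groups did not overlap. The partner chain gene Itgam, which encodes CD11b, had 573 and 388, and 340 and 426, and Adgre1, which encodes the macrophage marker F4/80, 387 and 456, and 446 and 537. In both the groups overlapped. The 3 higher promoters were Csf3r (0 and 28, 258 and 71), Cd14 (147 and 91, 216 and 247) and Csf2ra (78 and 317, 342 and 380).

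In T and NK cell promoters the coverage of the list overlapped between the genotypes. All 38 genes were CpG-poor, with 17.1% and 14.2% of bases under peaks in the wild-type and 15.5% and 14.3% in the HDAC7-deficient libraries. Both HDAC7-deficient libraries were below at 7 of the 38 (18.4%, beside 10.3% of all promoters) and above at 4 (10.5%, beside 7.68%). The share below was near that of the myeloid list, and no test compared the lists. Il2ra, the alpha chain of the interleukin-2 receptor, was among those above (458 and 337, 524 and 472 bases), as were Icos, Il13 and Cd6. Thy1, a surface glycoprotein of T cells, was among those below, with 477 and 471, and 458 and 0 bases, where only HDAC7-deficient replicate 2 stood far from the others. Cd247, the zeta chain of the T cell receptor complex, had 275 and 260, and 49 and 19.

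Erythroid and platelet promoters had 10.4% and 10.7% of bases under peaks in the wild-type and 13.6% and 14.9% in the HDAC7-deficient libraries, over 16 CpG-poor of 17 genes found. Both HDAC7-deficient libraries were above at 4 of the 16, beside 7.68% of all promoters, and below at 1, Ppbp. Gp1ba, the platelet receptor of von Willebrand factor, had 394 and 115 bases in the wild-type and 697 and 668 in the HDAC7-deficient libraries. It had the most peak bases of the list, a mean of 468.5 over the libraries, against 209.25 at the next, Slc4a1. The difference of the list thus leans largely on this 1 promoter. Pf4 and Hba-a2 were also among those above, Hba-a2 with 0 and 0, and 141 and 4 bases. Hba-a2 has a near-identical copy, Hba-a1, so that reads of the pair are hard to tell apart.

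Liver promoters had the lowest coverage of the lists. Of 32 found, 31 were CpG-poor, with 6.04% and 5.45% of bases under peaks in the wild-type and 5.21% and 5.15% in the HDAC7-deficient libraries. Of these, 11 (35.5%, against 26.2% of the class) had no peak in any library, among them Cyp7a1, the rate-limiting enzyme of bile acid synthesis, Tat, tyrosine aminotransferase, and Fga and Fgg, chains of fibrinogen. Their median GC content, 47.6%, was close to that of the class, 47.0%. The exception with most peak bases was Tdo2, tryptophan dioxygenase, with 350 and 404, and 305 and 185.

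**Figure D4:**
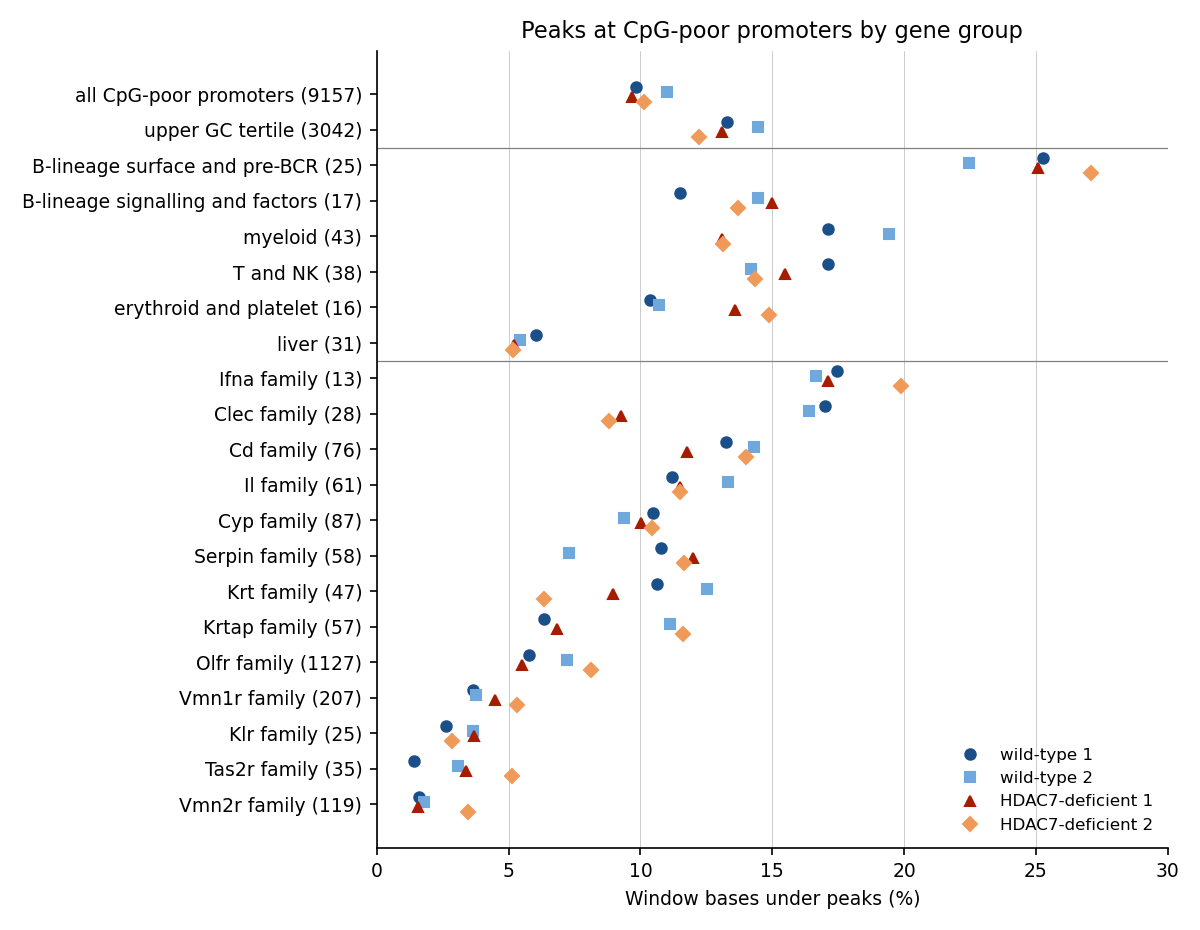
Percent of window bases under peaks in each library (points) for CpG-poor promoters of the gene lists and of 13 gene families, with the number of promoters in brackets. B cell surface genes lie at 22.5% to 27.1% and liver genes at 5.15% to 6.04%. Both HDAC7-deficient points lie below both wild-type points for the upper GC tertile, the myeloid and liver lists and the Clec and Krt families. They lie above them for the erythroid and platelet list, largely through Gp1ba, and for the Serpin, Vmn1r and Tas2r families.

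Large receptor families made up much of the low end of the class. The 1127 olfactory receptor promoters (Olfr) had 5.50% to 8.13% of bases under peaks over the libraries, the 207 vomeronasal type 1 promoters (Vmn1r) 3.66% to 5.31%, the 119 type 2 promoters (Vmn2r) 1.57% to 3.47% and the 35 bitter taste receptor promoters (Tas2r) 1.41% to 5.13%. Their median GC content was 36.4% to 37.9%, beside 38.8% in the lower GC tertile of the class. Without Olfr and Vmn genes that tertile had 6.41% to 8.61%. The NK receptor genes (Klr, 25 promoters) had 2.63% to 3.68%. Members of gene families, these and those below, can be close copies. How reads that match several copies were handled was not stated.

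Type I interferon genes stood at the other end of the families. The 13 Ifna promoters, in 1 cluster on chromosome 4 with a median GC content of 43.9% and a median of 3 CpGs, had 17.5% and 16.7% of bases under peaks in the wild-type and 17.1% and 19.9% in the HDAC7-deficient libraries. None of the 13 lacked a peak in every library. The C-type lectin genes (Clec, 28 promoters, most on chromosome 6) had 17.0% and 16.4%, and 9.28% and 8.82%. Both HDAC7-deficient libraries were below at 7 of the 28 (beside 10.3% of all promoters) and above at none (beside 7.68%). The 7 were Clec4a3, Clec4e, Clec2i, Clec12a, Clec4g, Clec10a and Clec14a. Without the Clec genes the myeloid list still stood at 18.1% in wild-type and 13.02% in HDAC7-deficient cells. These families were singled out after their values had been seen.

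Gmfg had the highest coverage that held in all 4 libraries. It encodes an actin regulator of blood cells (chr7:28436947-28437947), and had 690 and 968 peak bases of 1001 in the wild-type and 816 and 641 in the HDAC7-deficient libraries. Ctcfl, a germ cell paralogue of CTCF, had 581 and 981, and 690 and 844. Next came Zfp52, a zinc finger gene, Nr3c1, the glucocorticoid receptor, Serpinb9, an inhibitor of granzyme B, Vsig10l, Spata31d1a, Dmkn, Alox5ap, which leukotriene synthesis requires, and Ypel4, each with at least 507 bases in every library. The list mixes genes of blood cells with genes of skin and testis.

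Both genotype patterns were about as frequent at CpG-poor promoters as at all promoters. Peaks present only in the HDAC7-deficient libraries, and in both of them, were found at 200 CpG-poor promoters (2.18%) and at 2.44% of all promoters. The reverse pattern was found at 256 (2.796%) and at 3.15% of all. Peak bases in both HDAC7-deficient libraries were above both wild-type values at 712 CpG-poor promoters (7.78%, against 7.68% of all) and below both at 875 (9.56%, against 10.3%). With 1 library left out, 567 to 720 CpG-poor promoters had peaks in the HDAC7-deficient libraries alone, and 568 to 812 in the wild-type libraries alone.

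The promoters with the widest gap between the genotypes were chosen by that gap and are described without a test. Prss22, a serine protease of airway epithelium, had 24 and 156 peak bases in the wild-type and 634 and 675 in the HDAC7-deficient libraries. All 200 printed upstream bases lay under peaks in each HDAC7-deficient library, against 0 in each wild-type library. It was followed by Olfr556 (0 and 95, 583 and 538), Lrrc17 (16 and 0, 423 and 474), Krtap10-4, a hair keratin-associated protein (105 and 122, 522 and 769), Gm6040 and Cryge, a lens crystallin (16 and 21, 391 and 488). In the other direction stood Slc8a2, a sodium/calcium exchanger of the brain (539 and 519, 66 and 41), Clec4a3 (676 and 732, 122 and 260), Mgp, matrix Gla protein (397 and 557, 0 and 0), Ets1, a transcription factor of lymphocytes (433 and 518, 50 and 0), Lman1l and Kcne3. Of the printed Slc8a2 bases, 200 and 168 lay under peaks in the wild-type and none in the HDAC7-deficient libraries. Ets1 and Kcne3 have another start that is not CpG-poor.

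**Figure D5:**
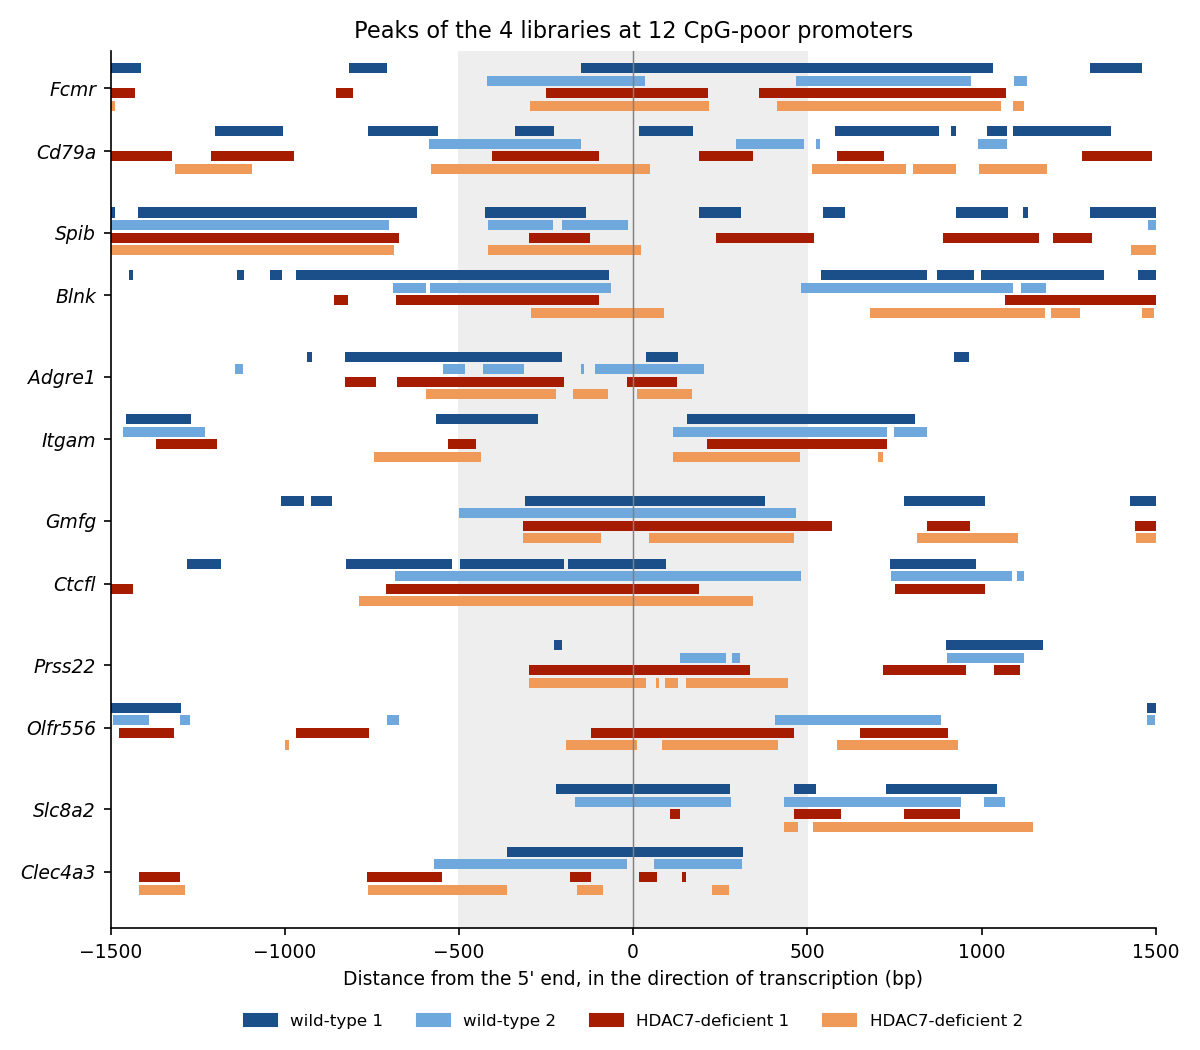
Peaks (bars) of the 4 libraries within 1500 bp of 12 CpG-poor 5′ ends, in the direction of transcription, with the window of 500 bp on each side in grey. Fcmr, Spib and Gmfg have peaks in the window in all 4 libraries, Prss22 has long peaks over the 5′ end in the HDAC7-deficient libraries alone, and Slc8a2 in the wild-type libraries alone.

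Of 12 genes that the study singles out or that act in 5-hmC metabolism, 6 had CpG-poor promoters, which were Cd79a, Itgb2, Cd69, Hdac7, Tet1 and Tet3. Cd69, an early activation marker of lymphocytes (chr6:129274936-129275936), had 233 and 101 peak bases in the wild-type and none in either HDAC7-deficient library. Hdac7 had 356 and 192, and 38 and 190, with both HDAC7-deficient values below both wild-type values by as little as 2 bases. Of the genes for TET enzymes, Tet3 had 0 and 69, and 219 and 113, and Tet1 0 and 175, and 63 and 0. For Hdac7, Tet1 and Tet3 the window lies at the outermost annotated start, and another start of each gene is not CpG-poor. Jun, Fosb, Fosl2, Ahnak, Tet2 and Pax5 are not CpG-poor by this rule.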

How the data were processed

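The deposited values of the 4 hMeDIP-seq libraries were peak coordinates (chromosome, start and end), another unit than counts. Per the labels and methods, the authors trimmed reads with Cutadapt 1.6 under Trim Galore 0.4.2, aligned them to mm10 (bwa in the methods, Bowtie2 in the submitters' processing notes), removed duplicates with Picard, normalized the signal to RPKM with deepTools and called peaks per library with MACS2 bdgpeakcall, at a signal cutoff of 250, peaks of 10 bp or more and gaps of up to 10 bp. They removed peaks that met input peaks, and whether this preceded deposit was not given in the sources used here. A fixed signal cutoff makes the number and width of peaks move with depth and background, which the lists do not show. None of the 4 input libraries was analysed here.

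Peaks were intersected with promoter windows (shared base, minimum 1 bp) in Python 3.11.15 (pandas 2.3.3, NumPy 2.4.6, and matplotlib 3.10.9 for figures). The code was tested on simulated data. Tertiles of GC content and CpG number were cut within the class, and soft-masked bases stood for repeats. The test between genotypes enumerated all 6 assignments of the libraries (exact permutation, two-sided), and the test between classes flipped signs over libraries. Promoters of 1 library were not taken as replicates. Named genes were up to 8 members of each list with most peak bases, all study genes, the 10 windows with the highest lowest value and the 6 with the widest gap in each direction, and 2 genes that the rule names are not reported here. The members and lists were chosen with earlier results of these data known. The alternatives were other peak widths, limits, windows and overlap rules, families, chromosomes, shared windows, repeats or genes with other starts left out, and each library left out. The authors' differential analysis used reads and was not repeated.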

Additional observations from a re-analysis of the deposited data

How the results depend on the processing

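The share of CpG-poor promoters with a peak, HDAC7-deficient minus wild-type, ran from -3.01 to 0.852 percentage points with each library left out, and bases under peaks from -1.09 to 0.0895. Peaks per 100 windows ran from -4.40 to 2.30 (1.11 without wild-type replicate 2) and were 0.0546 when a peak was placed by its midpoint. The share of promoters with a peak, CpG-poor over other, was 0.957 as reported, and turned to 1.01 with peaks of at least 200 bp, 1.02 with 250 bp on each side and 1.01 without Olfr and Vmn genes (leave-one-out 0.926 to 0.979). The same ratio of bases was 1.02 as reported, and 0.955 with a limit of 0.40, 0.981 without genes that have another start that is not CpG-poor, an alternative chosen after seeing the data, and 0.980 to 1.05 with each library left out. Coverage near the start over that at 4 to 5 kb was 1.03 without Olfr and Vmn genes, and 0.955 to 0.971 with each library left out. Leave-one-out counts were 567 to 720 for peaks in HDAC7-deficient libraries alone and 568 to 812 for wild-type libraries alone. These count a pattern over 3 libraries, which more windows can meet.

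The ratio of bases under peaks stayed above 1 for CpG-poor over CpG-rich promoters (1.13 to 1.28) and for the upper over the lower GC tertile (1.98 to 2.22). So did the ratio of CpGs under peaks in CpG-poor to other promoters (1.41 to 1.58). This held with each library left out and under the other alternatives, which were added after seeing the data.

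With the replicate number as a block the differences were the same, -1.08 (exact sign-flip p = 1), -0.499 (p = 0.5) and -1.05 (p = 1), where 0.5 is the smallest p of 2 pairs. The labels do not say what a number marks, so no pairing was taken. The deviations of same-numbered libraries correlated at r = 0.0455 across 9157 windows. This correlation cannot see a shift shared by all windows, and coverage was lower in both first replicates, as given above. Whether the numbers mark a shared batch was not tested. The depth behind the peaks is unknown and limits every value.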
